A study of Bos taurus with 21 samples.

Results

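The genes that code for the coats, the translocon and the receptors of the secretory pathway were described in milk somatic cells of 21 Holstein cows. The members were chosen by symbol alone. They were COPA, COPB1, COPB2, COPE, COPG, COPG2, COPZ1, COPZ2 and ARCN1, every symbol that starts with SEC, SSR or SRP followed by a digit, and every symbol that starts with SPCS, TRAPPC or TMED. The rule found 67 of the 13570 gene rows, and 66 of these had a count in at least 1 cow. COPA is among the genes that the study picked for its relation to milk yield in the same cows, so its own slope is not independent evidence.

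Proteins that a cell secretes, and the milk caseins among them, enter the endoplasmic reticulum while they are being made. The signal recognition particle brings the ribosome to the membrane, the SEC61 channel of the translocon lets the chain through, and the signal peptidase removes its signal peptide. Vesicles with a COPII coat carry cargo out of the endoplasmic reticulum, vesicles with a COPI coat bring proteins back from the Golgi, p24 receptors of the TMED family help to sort cargo, and TRAPP complexes tether the vesicles. Milk somatic cells are a mixture of leukocytes and shed mammary epithelial cells, and of these the epithelial cells make the caseins.

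The cows fell into a high yielding group (HY, 9 cows) and a low yielding group (LY, 12 cows), and each cow gave 1 library of total RNA from somatic cells in the milk. No treatment, genotype or age is given beyond the Holstein strain. The cows of each group were of parity 2 to 4. HY cows were sampled at 41 to 268 days of lactation and LY cows at 52 to 270 days. The breeding value of milk yield, which has no unit in the labels, spanned 181.118 to 468.053 in HY and -404.27 to 86.92 in LY. The 21 cows are separate animals, so the p-values measure the spread between cows.

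Each cow had between 7878557 and 28541904 counts on genes, and the members together held between 0.444% and 0.809% of them. The share of counts on the 4 caseins CSN1S1, CSN1S2, CSN2 and CSN3, called the casein share, ranged from 0.0876% in HY cow 3235 to 44.2% in HY cow 3262. All 9 markers of mammary epithelium were counted, with a summed level of 91.6 to 109100 CPM in HY and 291 to 43000 CPM in LY. This sum was weighted to LALBA, which alone reached 100400 CPM, whereas CDH1 ranged from 7.46 to 25.1 CPM over all cows. All 6 markers found for neutrophils (1632 to 11040 CPM in HY, 2912 to 10220 CPM in LY), for macrophages (1601 to 8811 CPM in HY, 2254 to 8291 CPM in LY), for T cells (43.8 to 629 CPM in HY, 60.8 to 1090 CPM in LY) and for B and plasma cells (35.2 to 401 CPM in HY, 69.6 to 924 CPM in LY) were counted as well. In a mixture of this kind, fewer cells of a type and less RNA per cell cannot be told apart. HY cows 3262 and 3280 stood apart with TMM scaling factors under 0.5, and for each relation the number of members without these 2 cows is given as well.

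The members fell into 8 subunits of the COPI coat, 8 of the COPII coat, 10 of the translocon, 6 of the signal recognition particle, 4 of the signal peptidase, 11 TRAPP subunits, 10 p24 receptors, 3 SEC22 genes and 7 further genes, among them the SEC14-like lipid transfer proteins. A minimum of 10 counts in each cow was reached by 58 members, and a mean of 10 by 61. SEC1 had 0 counts in each of the 21 cows, which allows up to 0.105 to 0.381 CPM per cow (3 counts, counting error only). TRAPPC4, a core subunit of the TRAPP complexes, was counted in only 4 cows, never above 0.125 CPM, while TRAPPC1 and TRAPPC3 of the same core were at 20.4 to 65.9 CPM and 16.1 to 50.9 CPM. The other members with a mean under 10 were SEC14L3, SEC14L4, SEC14L5 and TMED8. Levels are CPM, which are not scaled to transcript length, so they are compared between cows and not between genes.

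The relation to milk yield was tested as the study did for COPA, by a simple regression of milk yield on log2(CPM + 0.25). Of the 66 members tested, 3 were trait-associated at p under 0.05 without adjustment, and all 3 had a positive slope: COPA, SEC31A and SEC23B. This is 4.55% of the members, and the share over all 12333 genes was 2.49%, made up of 0.859% with a slope above 0 and 1.63% with a slope below 0. The 3 include COPA, which the study picked for this relation in the same cows. The 4.55% is therefore not independent of that choice. After Benjamini-Hochberg adjustment over all genes, 0 members passed the regression, with a lowest adjusted p of 0.9999. Without HY cows 3262 and 3280, 5 members had p under 0.05, COPA, SEC31A, SEC23B and SEC14L1 with a positive and SEC16B with a negative slope, which is 7.58% of the members beside 7.02% of all genes. The count tests on milk yield gave 2 members with edgeR before adjustment, which is 3.03% beside 3.66% of all genes. With DESeq2 they gave 3 members, which is 4.55% beside 2.91% of all genes. After adjustment 0 members passed in either test, and of all genes 12 passed with edgeR and 0 with DESeq2.

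COPA, the largest subunit of the COPI coat, ranged from 255 to 509 CPM in HY, with a median of 343, and from 156 to 314 CPM in LY, with a median of 267. The ranges overlapped, but the 6 highest values, from 326 CPM in cow 3057 to 509 CPM in cow 3280, were all of HY cows. Its slope was 374 ± 126 (SE, n = 21) units of milk yield per doubling of the level (p = 0.0078). Leaving out single cows moved the slope between 322 and 449.

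SEC31A and SEC23B belong to the outer and the inner layer of the COPII coat. SEC31A ranged from 120 to 184 CPM in HY (median 149) and from 105 to 154 CPM in LY (median 135). Its narrow range gave a steeper slope than that of COPA, 655 ± 215 (SE, n = 21, p = 0.0066). SEC23B ranged from 83.0 to 210 CPM in HY (median 135) and from 73.2 to 173 CPM in LY (median 104.5), with a slope of 345 ± 126 (SE, n = 21, p = 0.0128). For SEC31A the 4 highest values, from 173 to 184 CPM, were of HY cows. For SEC23B the 2 highest, 210 CPM in cow 3280 and 181 CPM in cow 3014, were of HY cows, and the groups overlapped below them.

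In terms of correlation with milk yield across the 21 cows, COPA had r = 0.564 (permutation p = 0.00721) and rho = 0.586 (permutation p = 0.00615). SEC31A had r = 0.573 (permutation p = 0.00673) and rho = 0.464 (permutation p = 0.0361), and SEC23B had r = 0.533 (permutation p = 0.0126) and rho = 0.629 (permutation p = 0.00282). Leaving out the 2 cows with the most distant levels gave r of 0.571, 0.633 and 0.457 for COPA, SEC31A and SEC23B. The study's mapping rates split the cows into 16 under 85% and 5 above. Within the 16 cows r was 0.537, 0.532 and 0.445, and the slopes of SEC31A (p = 0.0689) and SEC23B (p = 0.0972) no longer passed, whereas that of COPA passed under every alternative tried. The 5 cows, 1 HY and 4 LY, were not tested on their own.

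**Figure D1:**
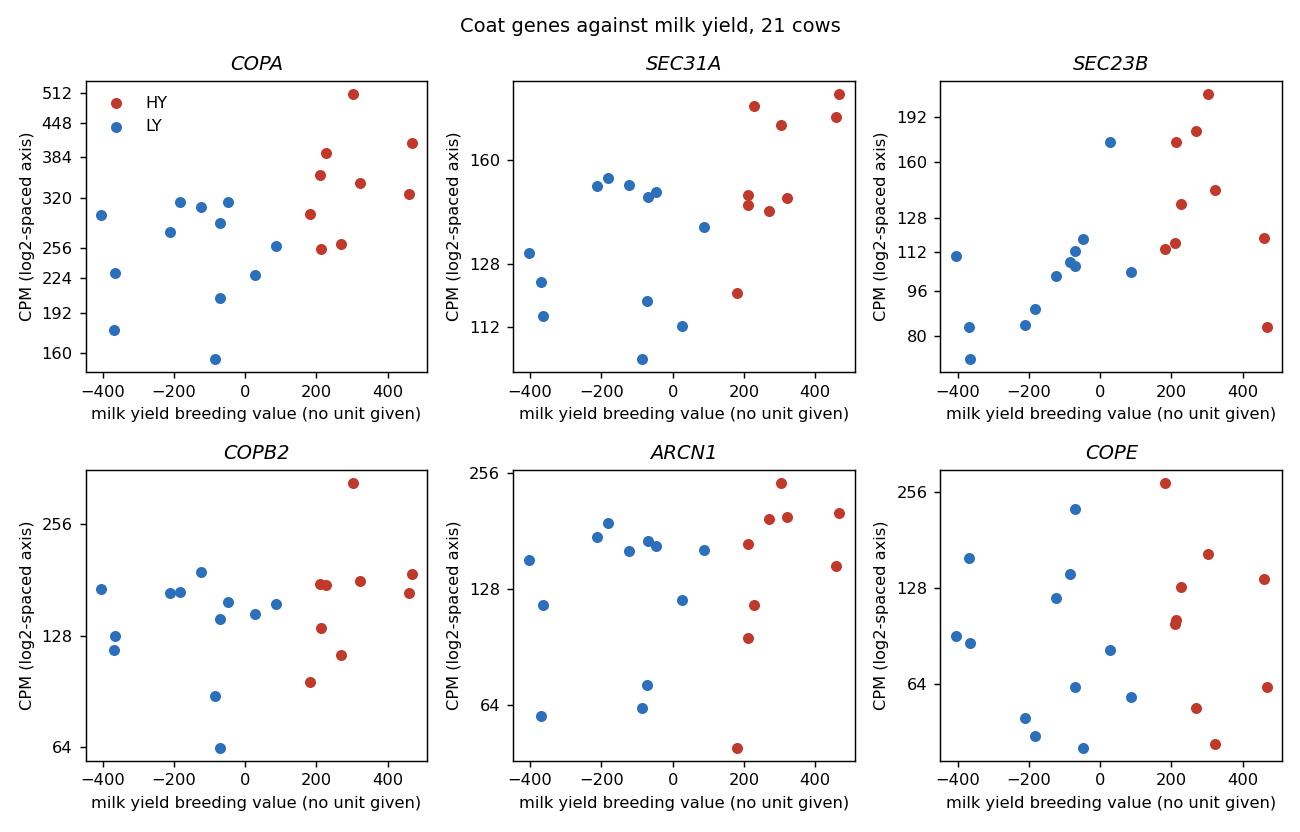
Level of 6 coat genes in CPM (log2-spaced axis) against the breeding value of milk yield in 21 cows, HY in red and LY in blue, each point a cow. COPA, SEC31A and SEC23B had slopes with p under 0.05, whereas COPB2 (p = 0.219), ARCN1 (p = 0.218) and COPE (p = 0.908) did not.

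The other subunits of the COPI coat did not pass. COPB2, a subunit of the outer layer with COPA, had a slope of 153 ± 120.5 (SE, p = 0.219), and ARCN1, the delta subunit, had 115 ± 90.4 (SE, p = 0.218). COPB1 and COPZ1, subunits of the adaptor layer, had slopes of 84.8 ± 106 (p = 0.433) and 83.2 ± 109 (p = 0.455). COPG2, a gamma subunit, had 52.3 ± 146 (p = 0.725) and COPE, the epsilon subunit, had 8.86 ± 75.5 (p = 0.908). COPZ2, the second zeta subunit, was the one with a negative slope, -34.2 ± 55.9 (p = 0.548). No row had the symbol COPG. A row COPG1, which the rule does not take, had a median of 143 CPM and a slope of 107 ± 132 (p = 0.428).

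The comparison of the groups with edgeR gave a similar picture for the coats. All 8 COPI and all 8 COPII members had a higher fitted level in HY than in LY, also with the size factors of DESeq2 and with the caseins left out of the library size. This was not limited to the coats. A higher level in HY was also fitted for 4 of 4 signal peptidase genes, 8 of 10 translocon genes and 5 of 10 p24 receptors. It was fitted for 50 of the 66 members and for 6501 of 12333 genes. The number with a higher level was 7 of 8 in each coat in the 16 cows with the lower mapping rates, and 5 of 8 COPI and 6 of 8 COPII members without HY cows 3262 and 3280. As a difference of mean log2(CPM + 0.25) between the groups, SEC16B (-0.31) and COPG2 (-0.03) were lower in HY. Before adjustment only COPA, SEC23B and SEC24C had p under 0.05. This is 4.55% of the 66 members, close to the 4.69% of all genes, of which 1.52% were higher and 3.16% lower in HY. After adjustment 0 members passed (edgeR, lowest adjusted p 0.9985), as with DESeq2. Before adjustment 5 members had p under 0.05 with DESeq2, which is 7.58% beside 2.98% of all genes. The median log2 difference of HY minus LY was 0.18 over the members and 0.02 over all genes.

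COPA differed by 0.46 on the log2 scale in this fit (p = 0.0163). The mean log2(CPM + 0.25) of COPA was 8.42 ± 0.32 (SD, n = 9) in the HY cows. In the LY cows it was 7.96 ± 0.34 (SD, n = 12), and a two-sided exact permutation test gave p = 0.00414. Because the study picked COPA for milk yield in these cows, neither p-value is independent evidence. SEC24C, a cargo-binding subunit of the COPII coat that is named here after its values were seen, ranged from 170 to 293 CPM in HY (median 201) and from 128 to 297 CPM in LY (median 158). The highest value was that of LY cow 2893, and the next 2 were of HY cows. Its log2 difference was 0.38 ± 0.18 (SE, edgeR, p = 0.0432). TMED10, a p24 receptor named for the same reason, had p = 0.00796 in the exact permutation test and p = 0.0609 in edgeR. The exact test also gave p = 0.0123 for SEC24C, p = 0.0188 for SEC23B and p = 0.0141 for SEC31A. In edgeR SEC31A had p = 0.103. The exact test was run on the members only, so no share of all genes stands beside it. Without HY cows 3262 and 3280, COPA and SEC23B had p under 0.05, which is 3.03% of the members beside 5.71% of all genes. In the 16 cows with the lower mapping rates, and also once HY cow 3280 was left out, 0 members had p under 0.05 by edgeR. Over all genes the share in the 16 cows was 3.55%, and that without HY cow 3280 is not given here.

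No relation of the log2 casein share was detected with milk yield (r = -0.281, permutation p = 0.217, rho = -0.197, permutation p = 0.39) or with lactation period (r = -0.0893, permutation p = 0.7, rho = -0.105, permutation p = 0.649). In the 16 cows with the lower mapping rates r was -0.356 and 0.00523, and over a family of 21 relations the adjusted p of r was 0.506 and 0.919. Counts were fitted with edgeR to the log2 casein share, and a slope is the log2 change of a gene per doubling of that share. Of the 66 members, 10 passed at an adjusted p under 0.05, which is 15.2% and below the 19.9% of all genes. With rising casein share 7 members rose: SEC16B, SPCS1, COPZ2, TRAPPC6B, SRP19, SRP14 and TRAPPC2. SEC61A1, SEC14L1 and TRAPPC9 fell. Of all genes 10.2% rose and 9.69% fell. Before adjustment 15 members had p under 0.05, or 22.7%, where the share of all genes was 32%. Over all members the median slope was 0.01, and 35 slopes were positive and 31 negative.

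SEC16B, which helps to organise the exit sites where COPII vesicles form, had the largest slope. In the 4 cows with a casein share under 1% it was at 1.501 CPM (HY cow 3235), 0.637 CPM (HY cow 2814), 2.78 CPM (LY cow 7643) and 0.492 CPM (HY cow 3057). In the 9 cows between 1% and 15% it ranged from 1.23 to 5.60 CPM, with a median of 2.79. In the 8 cows above 15% it ranged from 5.69 to 27.1 CPM, with a median of 10.5. No cow above 15% had a level as low as the highest of the 13 other cows. The slope was 0.40 ± 0.07 (SE, adjusted p = 0.000465), with r = 0.785 (permutation p = 1e-05, the smallest that 100000 permutations can give) and rho = 0.868. Leaving out the 2 cows with the most distant casein shares gave r = 0.747, and the 16 cows with the lower mapping rates gave r = 0.853. The other COPII genes, SEC13, SEC23A, SEC23B, SEC24A, SEC24C, SEC31A and SEC31B, had slopes from -0.07 to 0.04 and did not pass.

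SEC61A1, which forms the pore of the SEC61 channel, went the other way. It was at 164 CPM in HY cow 3235, 245 CPM in HY cow 2814, 206 CPM in LY cow 7643 and 176 CPM in HY cow 3057, the 4 cows with the lowest casein share. In the 8 cows above 15% it ranged from 21.3 CPM in LY cow 2893 to 132 CPM in HY cow 3262, with a median of 68.1. The slope was -0.20 ± 0.04 (SE, adjusted p = 0.00128), with r = -0.732 (permutation p = 0.00014) and rho = -0.712 (permutation p = 0.00049). The same checks gave r = -0.665 and r = -0.714. HY cow 3262, with the highest casein share of all, lay well above the other cows with a high share.

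The small subunits of the same channel did not follow SEC61A1. SEC61B had a slope of 0.11 ± 0.05 (SE, adjusted p = 0.156) and SEC61G a slope of 0.05 ± 0.05 (SE, adjusted p = 0.573). SEC61B was at 153 to 177 CPM in the 4 cows with a casein share under 1%, and at 111 to 695 CPM in the 8 cows above 15%. The ratio of SEC61B to SEC61A1 in CPM was 0.68 in HY cow 2814 and 18.8 in HY cow 3280, with a median of 1.48. Its other high values were 12.9 in LY cow 2893 and 7.22 in HY cow 3075. The log2 ratio had r = 0.641 with the log2 casein share (permutation p = 0.00245, rho = 0.818, permutation p = 6e-05), which did not pass after adjustment over 27 such relations (adjusted p = 0.0659). Leaving out the 2 cows with the most distant casein shares gave r = 0.639, and the 16 cows gave r = 0.631. This pair was chosen after the values were seen. SEC62 and SEC63, which assist the channel, had slopes of 0.11 (adjusted p = 0.0758) and 0.08 (adjusted p = 0.053).

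SPCS1, a small subunit of the signal peptidase, rose with the casein share. It ranged from 25.1 to 39.4 CPM in the 4 cows under 1%, from 22.0 to 54.7 CPM in the 9 cows between 1% and 15%, and from 37.2 to 161 CPM in the 8 cows above 15%. The slope was 0.20 ± 0.05 (SE, adjusted p = 0.00323). The 3 cows above 100 CPM were HY cows 3280, 3262 and 3075, each with a casein share of 26.4% or more. SEC11A and SEC11C, the 2 catalytic subunits, had slopes of -0.05 (adjusted p = 0.182) and 0.10 (adjusted p = 0.162).

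In the signal recognition particle, SRP14 and SRP19 rose. SRP14, which forms the part of the particle that halts the ribosome together with SRP9, ranged from 45.1 to 98.0 CPM under 1% and from 75.1 to 188 CPM above 15% (slope 0.10 ± 0.03, SE, adjusted p = 0.021). SRP19 ranged from 34.4 to 72.6 CPM under 1% and from 52.8 to 200.2 CPM above 15% (slope 0.14 ± 0.04, SE, adjusted p = 0.0187). The ranges of both genes overlapped between the sets of cows. SRP54, which binds the signal peptide, had a slope of 0.10 (adjusted p = 0.053), whereas SRP9 (0.03), SRP68 (-0.02) and SRP72 (0.04) had slopes near 0.

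The TRAPP tethers split. TRAPPC6B (0.14 ± 0.04, adjusted p = 0.0178) and TRAPPC2 (0.10 ± 0.03, adjusted p = 0.0336) rose, and TRAPPC9 (-0.10 ± 0.03, adjusted p = 0.0296) fell. TRAPPC9 was highest in LY cow 7643, at 58.8 CPM, and without that cow its adjusted p was 0.224. SEC14L1, a SEC14-like protein that shares its name prefix with the coat genes, ranged from 48.2 to 79.0 CPM in the 4 cows under 1% and from 8.13 to 38.3 CPM in the 8 cows above 15%, without overlap (slope -0.18 ± 0.05, SE, adjusted p = 0.00872). COPZ2 ranged from 4.00 to 6.60 CPM in the 4 cows and from 4.36 to 42.8 CPM in the 8 cows, and its slope of 0.22 ± 0.08 (SE) passed narrowly (adjusted p = 0.0441). Among the p24 receptors and the SEC22 genes, named for a vesicle SNARE, 0 passed by edgeR, and TMED6 (0.13, adjusted p = 0.115) and SEC22C (0.05, adjusted p = 0.52) had the lowest p. TMED6 was the single one of these with p under 0.05 before adjustment, and DESeq2 gave it an adjusted p under 0.05.

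**Figure D2:**
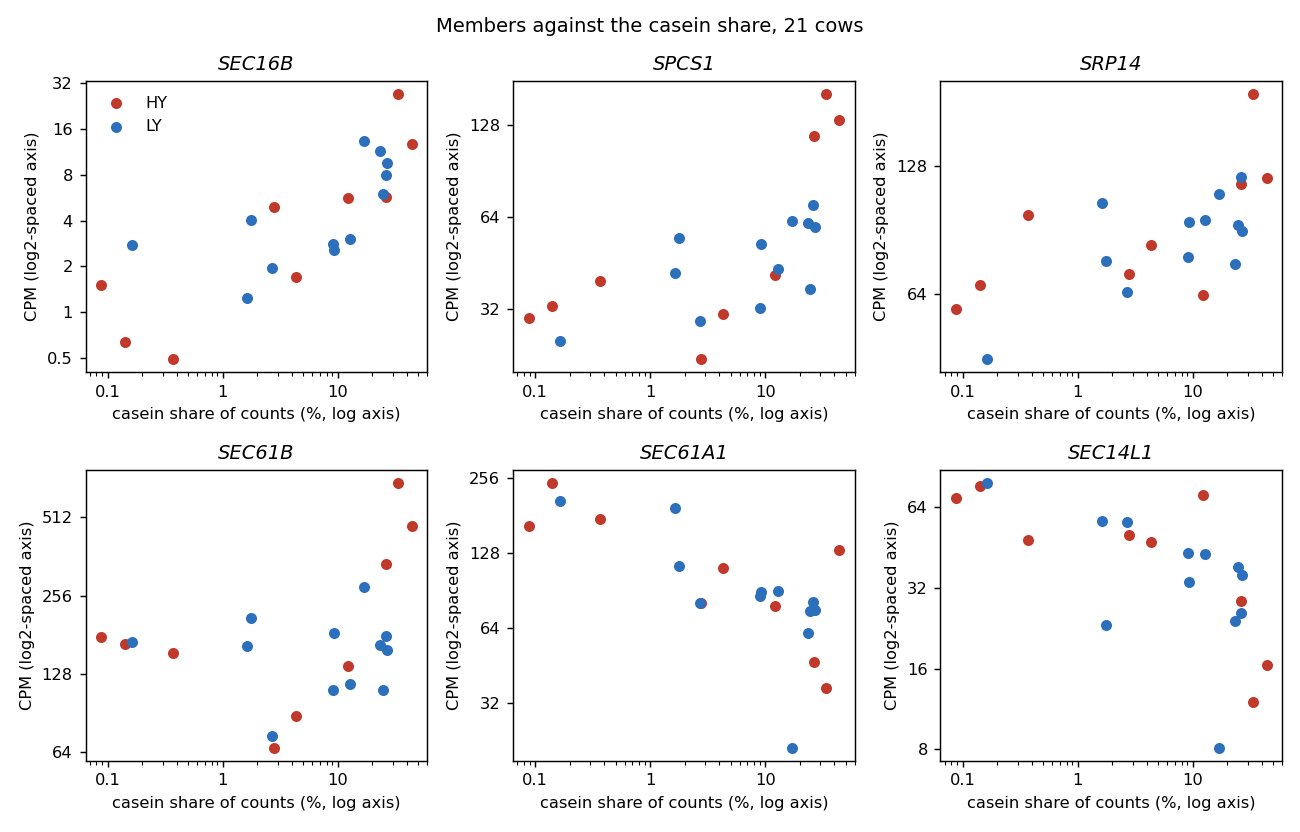
Level of 6 members in CPM (log2-spaced axis) against the casein share of counts in percent (log axis) in 21 cows, HY in red and LY in blue, each point a cow. SEC16B, SPCS1 and SRP14 rose and SEC61A1 and SEC14L1 fell with the casein share, whereas SEC61B did not pass (adjusted p = 0.156).

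The number of members that passed for the casein share depended on the cows. It was 3 (SEC16B, SEC61A1 and SPCS1) in the 16 cows with a mapping rate under 85%, and 4 (SEC16B, SPCS1, SRP19 and SSR4) in the cows with a casein share of at least 1%. It was 6 without HY cow 2814 or without LY cow 7643, both with a casein share under 1%. Over all genes the share that passed was 10% in the 16 cows and 6.11% in the cows with a casein share of at least 1%. For the fits without 1 cow that share is not given here. Without HY cows 3262 and 3280, 15 members passed, which is 22.7% beside 21.3% of all genes. Of the 10 members named above 8 were among them, whereas COPZ2 (adjusted p = 0.225) and SRP14 (adjusted p = 0.0536) did not pass. SEC16B and SPCS1 were among those that passed under each alternative tried. Markers of other cells moved with the casein share. The summed level of the epithelial markers had r = 0.95 with the log2 casein share, that of the macrophage markers r = -0.798, and that of the B and plasma cell markers r = -0.67, over the same 21 libraries. Of these markers 7 of 9 rose, 5 of 6 fell and 3 of 6 fell at an adjusted p under 0.05. The epithelial sum was weighted to LALBA, which reached 100400 CPM. The epithelial markers CDH1 (adjusted p = 0.301) and KRT18 (adjusted p = 0.096) did not pass by edgeR. The part of the cell markers in the slopes of the members was not tested.

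The relation to lactation period was fitted in the same way, and a slope is the log2 change per 100 days. Of the 66 members, 22 had p under 0.05 before adjustment, 33.3%, where the share over all genes was 22.4%. Of the 22, 20 had a negative slope, or lower levels later in lactation, and over all genes 12.8% had a negative and 9.57% a positive slope at this p. After adjustment 0 members passed by edgeR, with a lowest adjusted p of 0.0624, and 3 of all genes did (0.0243%), each with a negative slope. With DESeq2, 8 members passed, all with a negative slope: COPZ2, SEC11C, SEC61B, SEC61G, SSR2, SSR3, SSR4 and TMED3. This is 12.7% of the 63 members with an adjusted p from DESeq2, and over all genes 8.3% passed in that fit, 4.81% with a negative slope. The median slope was -0.10 over the members and 0.02 over all genes.

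By role, negative slopes at p under 0.05 were found for 5 of 10 translocon genes, 3 of 4 signal peptidase genes and 3 of 6 signal recognition particle genes, and positive ones for 0 of them. Over all genes 12.8% had a negative slope at this p. The COPI and COPII coats held 2 of 8 and 1 of 8, the p24 receptors 2 of 10 and the TRAPP tethers 3 of 11. All of these numbers by role were the same with the size factors of DESeq2, where the share of all genes was 11.5%. Without HY cows 3262 and 3280 the numbers were 4 for the translocon, 1 for the signal peptidase, 0 for the signal recognition particle, 1 for the COPI and 0 for the COPII coat. The share of all genes was then 6.66%. For the signal recognition particle the number was 1 with the caseins left out of the library size and 0 in the 16 cows with the lower mapping rates, where the translocon (5) and the signal peptidase (3) had the same numbers as in all cows. Over all genes 10.8% had a negative slope at this p without the caseins, and 9.8% in the 16 cows.

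SEC11C, the second catalytic subunit of the signal peptidase, had the lowest p. In the 8 cows sampled at 41 to 108 days it ranged from 52.0 to 172 CPM, with a median of 84.8. In the 13 cows sampled at 167 to 270 days it ranged from 28.3 to 70.0 CPM, with a median of 44.5. The slope was -0.66 ± 0.15 (SE, p = 0.000159, adjusted p = 0.0624), with r = -0.69 (permutation p = 0.00047) and rho = -0.691 (permutation p = 0.00079). Leaving out the 2 cows with the most distant days gave r = -0.772, and the 16 cows with the lower mapping rates gave r = -0.754. SPCS1 and SPCS3 had slopes of -0.57 ± 0.19 (p = 0.00513) and -0.45 ± 0.16 (p = 0.00841), while SEC11A had -0.14 ± 0.10 (p = 0.166).

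SSR1 to SSR4 code for the translocon-associated complex next to the SEC61 channel. SSR4 ranged from 224 to 2800 CPM in the 8 early cows, with a median of 590, and from 165 to 738 CPM in the 13 late cows, with a median of 258. The 3 highest values were those of HY cow 3280 (2800 CPM, 108 days), HY cow 3262 (2068 CPM, 65 days) and LY cow 2893 (1282 CPM, 59 days). Its slope of -0.95 ± 0.27 (SE, p = 0.00154) stands beside -0.44 ± 0.12 for SSR3 (p = 0.00129) and -0.48 ± 0.16 for SSR2 (p = 0.00549), and the differences between them were not tested. SSR3 was above 168 CPM in each of the 8 early cows and ranged from 96.6 to 225 CPM in the late ones. SSR1 had a slope of -0.21 ± 0.10 (p = 0.0545).

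Of the channel itself, SEC61B and SEC61G had negative slopes at p under 0.05, and SEC61A1 did not. SEC61B ranged from 164 to 695 CPM in the 8 early cows and from 66.5 to 209 CPM in the 13 late cows (slope -0.68 ± 0.19, SE, p = 0.00121). SEC61G ranged from 217 to 676 CPM in the early and from 99.4 to 408 CPM in the late cows (slope -0.56 ± 0.17, SE, p = 0.00338). The slope of SEC61A1 was -0.07 ± 0.21 (p = 0.75). For both small subunits the sets of cows overlapped, and HY cow 3280 was highest.

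COPZ2 and TMED3 had the lowest p among the coat and p24 genes. COPZ2 had a slope of -1.03 ± 0.25 (SE, p = 0.00032, adjusted p = 0.0624), from 5.58 to 42.8 CPM early and 3.13 to 18.6 CPM late, while the slope of COPZ1 was -0.25 ± 0.15 (p = 0.109). TMED3 had a slope of -0.66 ± 0.17 (SE, p = 0.000634, adjusted p = 0.0624), from 33.9 to 115 CPM early and 13.1 to 76.3 CPM late. COPE (-0.47, p = 0.0192), SEC24C (-0.26, p = 0.0184) and TMED9 (-0.36, p = 0.015) also had negative slopes at p under 0.05. COPA (-0.05, p = 0.663), SEC31A (0.04, p = 0.674) and SEC23B (0.06, p = 0.619), the 3 members associated with milk yield, did not. The 2 members with a positive slope at p under 0.05 were SEC23IP (0.44, p = 0.032), a partner of SEC23, and SEC22B (0.31, p = 0.0377).

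**Figure D3:**
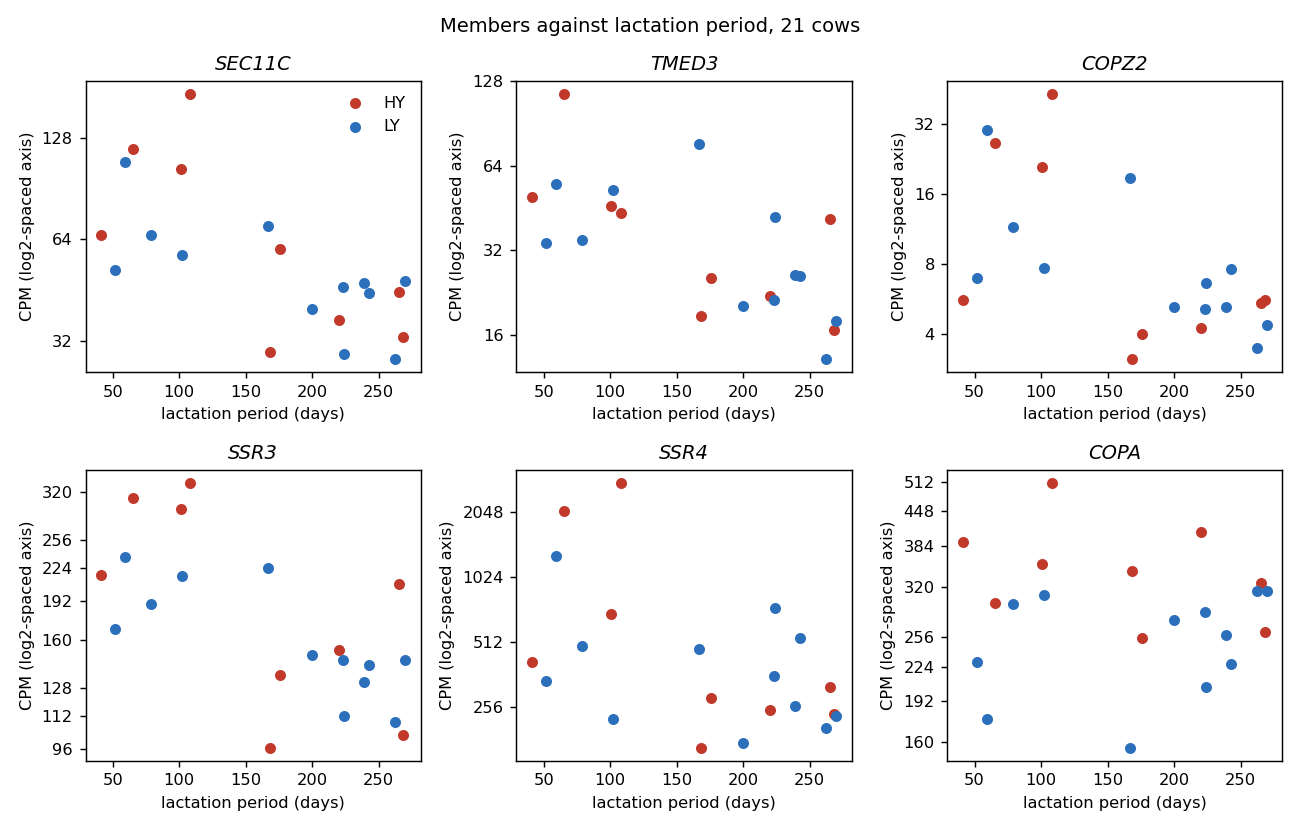
Level of 6 members in CPM (log2-spaced axis) against lactation period in days in 21 cows, HY in red and LY in blue, each point a cow. SEC11C, TMED3, COPZ2, SSR3 and SSR4 had negative slopes at p under 0.05 before adjustment, whereas COPA did not (p = 0.663).

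A further measure of each library, which may be technical, was set against lactation period. The share of reads that the authors could not place on any gene (no_feature) ranged from 12.96% to 31.9%, and had r = 0.477 with lactation period (permutation p = 0.0266, rho = 0.431, permutation p = 0.052). Leaving out the 2 most distant days gave r = 0.578, the 16 cows gave r = 0.576, and its adjusted p was 0.14 over 21 relations of this kind. With that share as a covariate, chosen after seeing the data, 6 members had p under 0.05 in place of 22, COPZ2, SEC11C, SEC61G, SSR3, TMED3 and TRAPPC2L, while the share of all genes was 8.16%. The slope of SSR4 was then -0.46 (p = 0.089) and that of SSR2 -0.14 (p = 0.316). Without HY cows 3262 and 3280 there were 11 members, or 16.7%, beside 13.1% of all genes. These were COPZ2, SEC11C, SEC22C, SEC23IP, SEC61B, SEC61G, SSR3, SSR4, TMED3, TRAPPC1 and TRAPPC2L, all among the 22. SPCS1 (p = 0.0632), SPCS3 (p = 0.0861) and SSR2 (p = 0.107) were among those that no longer had p under 0.05. Without LY cow 2893 there were 14, and the share of all genes in that fit is not given here. Genes of the cytosolic ribosomal proteins, a list also chosen after seeing the data, had a median slope of -0.45, and 50 of 77 had p under 0.05 with a negative slope. Of the marker lists, 2 of 9 epithelial and 2 of 6 B and plasma cell markers had p under 0.05 with a negative slope. The slope was positive at that p for 3 of 6 neutrophil markers. Of the B and plasma cell markers, PRDM1 had a positive slope at that p (0.72, edgeR, p = 0.0221). The part of these lists in the slopes of the members was not tested.

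**Figure D4:**
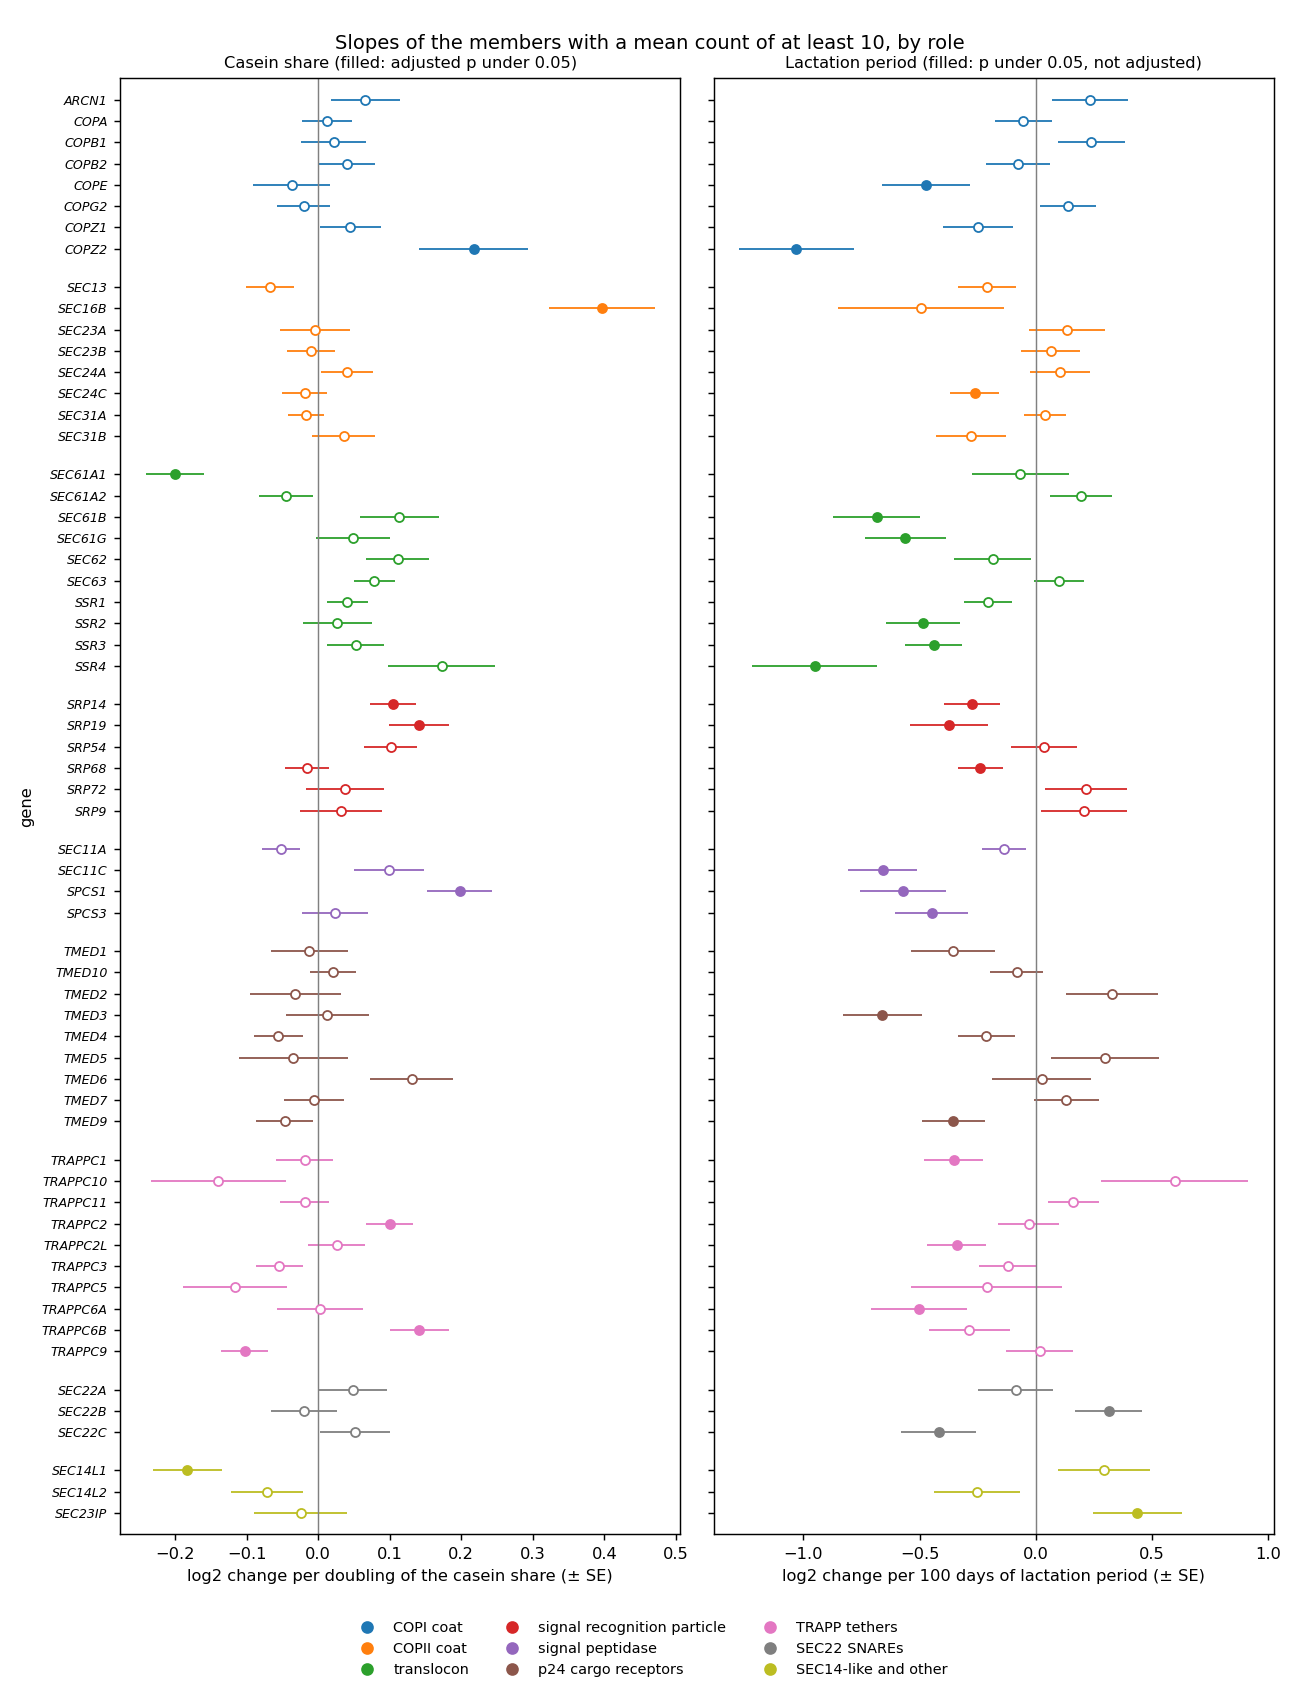
Slope ± SE of the 61 members with a mean count of at least 10, against the casein share (left, log2 change per doubling) and lactation period (right, log2 change per 100 days), coloured by role. Filled points passed at an adjusted p under 0.05 on the left and at an unadjusted p under 0.05 on the right, where 0 members passed after adjustment.

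Both relations were below p of 0.05 before adjustment for 5 members, COPZ2, SPCS1, SRP14, SRP19 and SSR4. Each of the 5 had a positive slope with the casein share and a negative slope with lactation period. They are 33.3% of the 15 members below that p for the casein share, 22.7% of the 22 for lactation period and 7.58% of the 66 tested. Over all genes 6.3% were below it for both, and 4.74% with slopes in these directions. With the log2 casein share as a covariate, 26 members had p under 0.05 for lactation period, 22 of them with a negative slope, which is 39.4% beside 24.4% of all genes.

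The members did not vary together as 1 group. Over the 61 members with a mean count of at least 10, the median pairwise r across the 21 cows was 0.092, and over all pairs of 9628 genes it was 0.00575. All of these correlations share the same 21 libraries and their scaling, and are given without a test. The signal peptidase (median r 0.529) and the signal recognition particle (0.356) varied together more than the translocon (0.198), the COPII coat (0.115), the COPI coat (0.0454), the p24 receptors (-0.0277) and the TRAPP tethers (-0.00314).

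Within most classes the members fell into opposite sets. TMED2 and TMED5, p24 receptors, had r = 0.936, and COPB1 and SEC23A, of different coats, had r = 0.933. In another set COPE and TRAPPC6A had r = 0.912, and SEC61B and COPZ2 had r = 0.906. Between these sets TMED2 and TRAPPC2L had r = -0.878, and COPB1 and TMED1 had r = -0.843. The COPI coat thus held pairs from r = -0.818 to r = 0.819. For COPA, SEC31A was the gene with the highest r of 9627 genes (0.844), ahead of PRRC1 (0.843), and COPB2 was at rank 8 (0.801) and ARCN1 at rank 74 (0.683). COPE (-0.174), COPZ1 (-0.0786) and COPZ2 (-0.0745) had r below 0 with COPA.

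**Figure D5:**
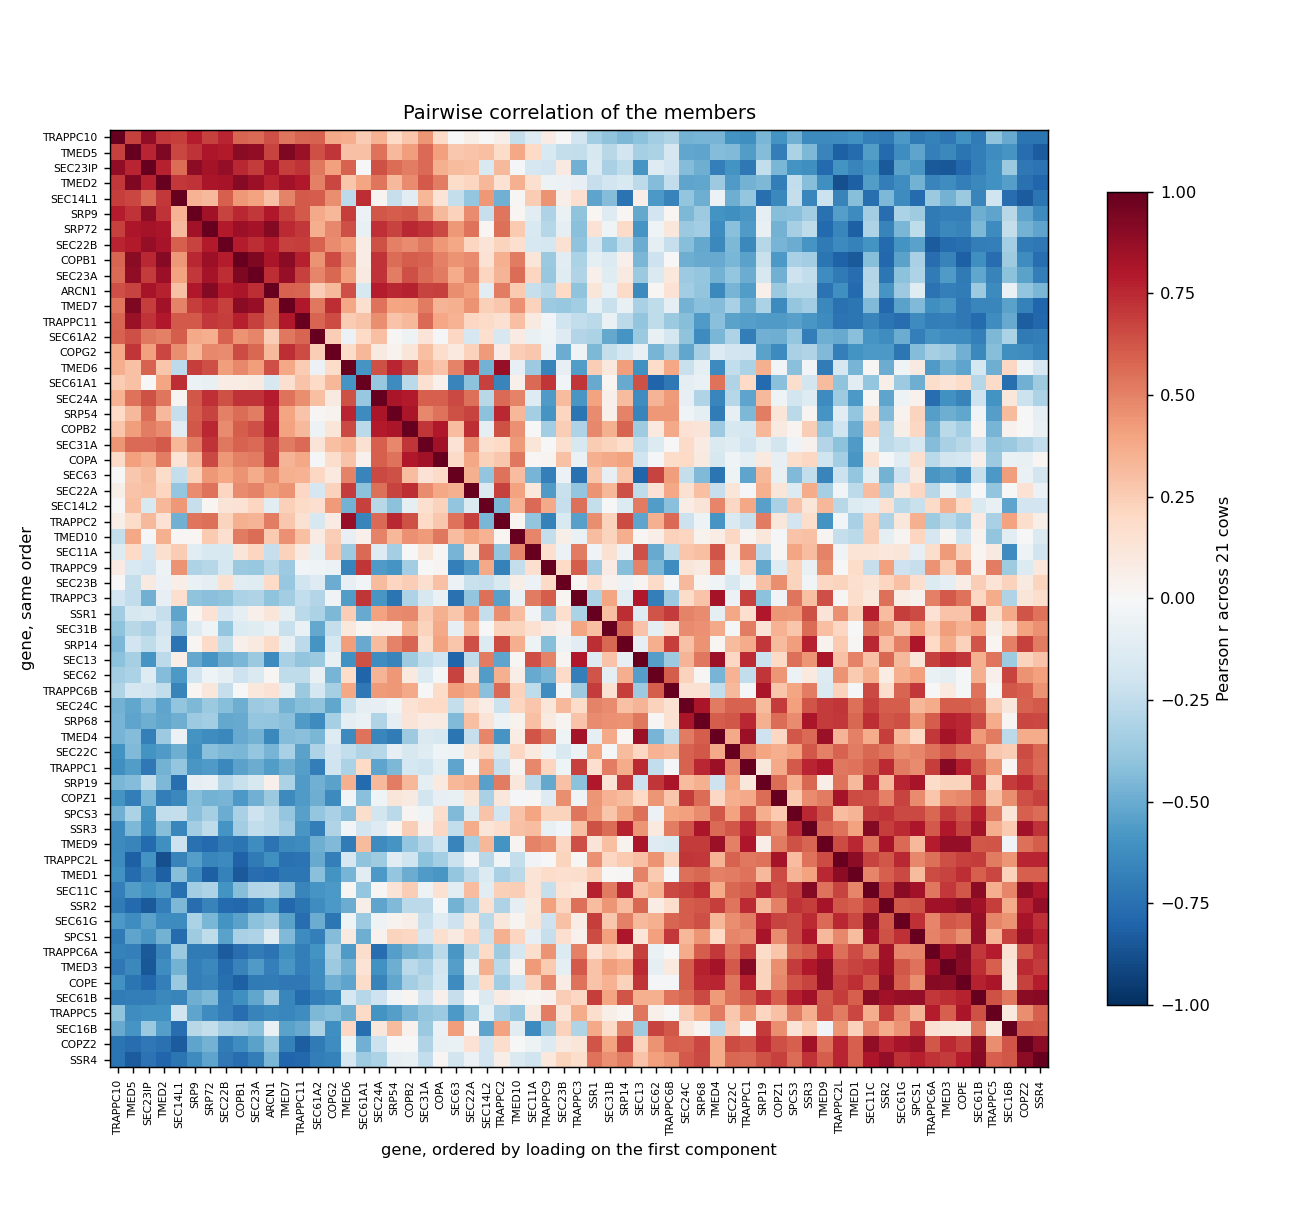
Pairwise Pearson r across 21 cows of log2(CPM + 0.25) for the 61 members with a mean count of at least 10, red for positive and blue for negative, ordered by their loading on the first principal component. One set, with TMED2, TMED5, COPB1 and SEC23A, is at the top left, and the opposite set, with SSR4, COPZ2, SEC61B and COPE, is at the bottom right.

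The first principal component of the 61 members held 52.4% of their variance, and that of all 9628 genes held 35.8% of theirs. These sets differ in size, so the 2 shares cannot be compared directly. The 2 ends of the component of the members were HY cow 3262 (9.43) and LY cow 3272 (-4.68). Genes were not scaled to equal variance. TRAPPC10 had the largest loading in size (-0.343), and it had 0 counts in HY cow 3262. The cow scores had r = -0.646 with the no_feature share (permutation p = 0.00173, adjusted p = 0.0363 over 21 relations, rho = -0.536), r = -0.557 with lactation period (permutation p = 0.00793, adjusted p = 0.0833, rho = -0.527) and r = 0.506 with the ribosomal protein share (permutation p = 0.0193, adjusted p = 0.135, rho = 0.582). Leaving out the 2 cows most distant on the x measure gave r of -0.388, -0.663 and 0.463, so the first rests in part on those cows. The 16 cows with the lower mapping rates gave -0.564, -0.595 and 0.49. No relation of the scores was detected with milk yield (r = -0.108, permutation p = 0.643, rho = -0.177) or with the casein share (r = 0.248, permutation p = 0.28, rho = 0.321).

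Other genes of the pathway came from a list of 65 that act beside the members, of which 60 were counted. For milk yield 4 had p under 0.05, all with a positive slope, where 0.859% of all genes had such a slope, and 0 passed after adjustment. For the casein share 6 rose and 6 fell at an adjusted p under 0.05, and 10.2% of all genes rose and 9.69% fell. The partners of the COPI coat gave 1 that rose and 4 that fell of 12, those of the COPII coat 2 and 1 of 13, the tethers and SNAREs 2 and 0 of 19, the translocon and glycosylation partners 1 and 1 of 11, and the regulators 0 of 5. For lactation period 12 had p under 0.05 with a negative slope and 0 with a positive one, where the shares of all genes were 12.8% and 9.57%, and 0 passed after adjustment by edgeR. XBP1, a regulator of secretory pathway genes, had a slope of -0.10 with the casein share (adjusted p = 0.0618) and -0.02 with lactation period (p = 0.91).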

How the data were processed

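Messenger RNA of milk somatic cells was measured in 21 Holstein cows, 9 HY and 12 LY, 1 library each. The deposited files hold raw read counts per gene. As named in the processing notes and the methods, the authors trimmed reads with Trimmomatic, mapped them to bosTau7 with Bowtie2 and TopHat2, used SAMtools, and counted genes with HTSeq. Whether counting used strand is not given in the sources used here, so overlapping and antisense genes may not be separated. Rows that name no gene, which held 35.5% to 56.5% of the reads of a cow, were left out. Chi-square tests of the counts of 210 pairs of cows gave at least 37.9 per degree of freedom, so no library was treated as a copy of another.

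Counts were scaled with TMM factors in edgeR 4.0.16 (R 4.3.3). Tests ran over the 12333 genes that were counted in any cow. Milk yield was regressed on log2(CPM + 0.25), with p under 0.05 taken as trait-associated, as in the study. The casein share, lactation period and HY against LY used the quasi-likelihood test with Benjamini-Hochberg adjustment over all genes. DESeq2 1.42.0 was an alternative. Correlations used 100000 permutations. The scripts were tested on simulated data. A pseudocount of 0.25 and the mean count of 10 matter most for low genes, and intervals and floors cover counting error only.

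The members, roles, gene lists and tests were chosen with earlier results of these data known. Named in the text were all COPI members, each with p under 0.05 for milk yield, the 10 with the lowest p for casein share and for lactation period, the lowest for casein share in each class, and any without a count. Other genes are named as examples after their values were seen. Mapping rates were used only to split the cows at 85%. Sequences and transcript lengths were not used here.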

Additional observations from a re-analysis of the deposited data

How the results depend on the processing

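No paired analysis was possible because the labels number no replicates and each cow belongs to 1 group. Of 92 summary values under another setting, 81 were labelled the same and 11 moved. The rule for a count was loose, so 15 members in place of 10 for the casein share counted as the same, as did 0 against 0. A median pairwise r counted as the same if it moved by less than the SD of all pairwise r. Of 442 values of single members, 405 kept their side of the threshold and 37 no longer passed. Among those that passed in either fit 0 changed sign, and changes of sign among the others were not counted. Members associated with milk yield numbered 5 with parity and lactation period as covariates, COPA, SEC23B and SEC31A with SEC24C and TMED10, beside 3.01% of all genes, and 5 without the 2 cows with a TMM factor under 0.5, where SEC16B had a negative slope, beside 7.02% of all genes. Members that passed for the casein share numbered 3 in the 16 cows with a mapping rate under 85% and 4 in the cows with a share of at least 1%. For lactation period, 11 members had p under 0.05 without the 2 cows with a TMM factor under 0.5 (13.1% of all genes). With the no_feature share as covariate 6 did (8.16% of all genes). After adjustment 8 passed with DESeq2 (8.3% of all genes) and 6 with the level of the plasma cell gene IGJ as covariate (2.85% of all genes). Between HY and LY, 5 had p under 0.05 with DESeq2 (2.98% of all genes) and 0 in the 16 cows (3.55% of all genes). With the casein share as covariate 6 did, which is 9.09% of the members beside 6.16% of all genes. The cause was not tested. The TMM, IGJ, no_feature and 1% settings were chosen after seeing the data. Leaving out each cow in turn gave 3 to 4 members for milk yield, 6 (HY cow 2814 or LY cow 7643) to 13 (HY cow 3262) after adjustment and 14 to 20 before it for the casein share, 14 (LY cow 2893) to 26 (HY cow 2814) before adjustment for lactation period, and 0 (HY cow 3280) to 6 (LY cow 2893 or HY cow 2920) between the groups. For lactation period after adjustment it gave 0 to 7, with 7 without HY cow 2814 or LY cow 3407, 5 without HY cow 3057, 1 without HY cow 2920 and 0 without any other. Between HY and LY it gave 5 without HY cow 3057 or 3064 or LY cow 3161 or 3198. For milk yield and between the groups, 0 members passed after adjustment without any 1 cow. The shares of all genes in the fits without 1 cow are not given here. Whether all genes moved alike in those fits therefore cannot be read from these numbers. With 21 libraries of at least 7878557 counts, the spread between cows limits the tests, and for the 5 counted members with a mean under 10 the depth does as well.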
